A study of Mus musculus with 6 samples.

Results

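The endoplasmic reticulum (ER) stress genes described here are Xbp1, Atf4, Ddit3, Hspa5, Calr, Pdia4, Sdf2l1, Creld2, Manf and Herpud1. They were taken from the transcript table by gene name, and all 10 were found among 47729 genes, with 34 of the 115220 listed transcripts. Ribosome-associated RNA was sequenced in 6 libraries from the mPFC of male D2Cre/LSL-Flag-Cas9/RiboTag mice aged 2.5 to 3 months, on a strain background labelled C57BL/6. The 3 libraries of the Ctrl group came from mice injected with AAV GFP, and the 3 libraries of the Gsk3sKO in mPFC D2 group (Gsk3sKO below) from mice injected with AAV Gsk3sgRNA/GFP, and tissue was taken 3 weeks later. Mice of both groups thus carried the D2Cre bacterial artificial chromosome transgene, the Cre-dependent Cas9 and the RiboTag allele, in which Cre adds a hemagglutinin tag to the ribosomal protein Rpl22. The Ctrl virus held no guide, so injection of a guide and loss of GSK3β cannot be told apart in this comparison. The sources do not say whether the libraries came from single mice or from pools, so the p-values below rest on differences among libraries that may be technical replicates.

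The ER folds proteins that enter the secretory path, and misfolded protein there starts the unfolded protein response through the membrane sensors IRE1, PERK and ATF6. IRE1 cuts a short intron out of Xbp1 RNA, PERK slows translation while ATF4 is made, and ATF6 is released from the membrane as a transcription factor. The targets are chaperones such as Hspa5 (BiP), components of ER-associated degradation such as Herpud1, and, when stress lasts, the transcription factor Ddit3 (CHOP). Neurons make large amounts of receptors, channels and secreted peptides in the ER and express this machinery without added stress.

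The comparison asked whether these genes differed on ribosomes of mPFC D2 neurons after the knockout of GSK3β. Herpud1 and Xbp1 were lower in Gsk3sKO at an unadjusted p under 0.05, by about the same amount, and no member was higher at that threshold. No member had an adjusted p under 0.05. Calr, Hspa5, Ddit3, Creld2 and Manf had higher means in Gsk3sKO without passing the test, and of these only Calr had groups that did not overlap. Atf4, Pdia4 and Sdf2l1 had lower means, overlapped between the groups and did not pass the test either.

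Several of these promoters hold letters known to be bound by transcription factors of the response. They are shown because such letters, though not the same ones, are held by Herpud1, which was lower, and by Calr and Hspa5, which were not. Xbp1, which was also lower, had no match to the motifs below, like Atf4, Ddit3, Pdia4 and Sdf2l1. Promoters of 250 bases before to 50 bases after the start were read from RefSeq on GRCm38.p6, where 9 of the 10 members were found and Manf was not. The ER stress response element, CCAAT and CCACG with any 9 bases between them, is known to be bound by NF-Y together with ATF6 or XBP1. Searched on both strands, as were the other motifs, it was held by 39 of 32851 promoters (0.119%) and by 3 of the 9 members, Hspa5, Calr and Creld2. A shorter element, ATTGG and CCACG with 1 base between them, was held by 12 promoters (0.0365%), among them that of Herpud1. The letters TGATGCAA, known as a composite site of C/EBP and ATF factors, were held by 294 promoters (0.895%), and Herpud1 was the 1 member with them, on the opposite strand. The letters TGACGTGG, the core known for XBP1 and ATF6, were in 222 promoters (0.676%) and in 0 members. The long and the shorter element were found in different members, and the composite site and the shorter element of Herpud1 do not overlap. The motifs were chosen as known sites of this response, so these shares do not test the members. Only exact matches within the window were searched, so a member without a match may hold a variant or a more distant site.

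In the following stretches, written 5′ to 3′ on the strand of the gene, capitals mark these matches. The Hspa5 stretch is at chr2:34772020-34772043 (plus strand) and lies within the first exon of the longer transcript Hspa5-201. The Calr stretch is at chr8:84847035-84847133 (minus strand), the Creld2 stretch at chr15:88819480-88819578 (plus strand) and the Herpud1 stretch at chr8:94386277-94386427 (plus strand), all 3 before the annotated exons. The matches of Calr and Creld2 read on the opposite strand, and Herpud1 holds the composite site first and the shorter element after it.
Hspa5: cttcaCCAATCGGAGGCCTCCACG
Calr: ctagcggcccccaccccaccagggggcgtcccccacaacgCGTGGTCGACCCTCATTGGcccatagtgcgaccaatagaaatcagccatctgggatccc
Creld2: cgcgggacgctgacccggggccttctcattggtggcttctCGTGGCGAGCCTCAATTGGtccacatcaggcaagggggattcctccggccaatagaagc
Herpud1: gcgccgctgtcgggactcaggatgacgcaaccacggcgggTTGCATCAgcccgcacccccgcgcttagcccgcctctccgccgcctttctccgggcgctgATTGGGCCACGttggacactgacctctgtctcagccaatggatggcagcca

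The groups and libraries were checked first. The guide targets Gsk3b, whose gene total was 35.6, 53.8 and 56.5 FPKM in Ctrl and 36.9, 37.0 and 33.6 FPKM in Gsk3sKO. Ctrl replicate 1 fell among the Gsk3sKO libraries, and the log2 fold change was −0.40 ± 0.19 (SE, limma p = 0.0648, exact permutation p = 0.3). Small deletions at a Cas9 cut need not remove the RNA, so the total is a loose check of the labels. FPKM counts fragments per kilobase of transcript, relative to all mapped fragments, and a gene total is the sum over the transcripts of a gene. The table gives no read counts, and the number of transcripts above 0 was between 40787 and 55841 per library. Drd2, the D2 receptor, was at 1.58, 6.02 and 14.1 FPKM in Ctrl and 8.32, 5.96 and 7.28 FPKM in Gsk3sKO, so Ctrl replicate 1 was low in the gene that marks the tagged cells. The excitatory marker Slc17a7 was at 192 to 273 FPKM and the inhibitory marker Gad1 at 95.7 to 237 FPKM over the 6 libraries.

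The members spanned a wide range of levels per length. In Ctrl, Calr stood first with a mean of 239 FPKM, at percentile 98.6 of the gene totals tested, and its libraries lay apart from those of the next gene. Hspa5 (73.3 FPKM), Atf4 (57.3 FPKM) and Pdia4 (57.0 FPKM) followed, with ranges over libraries that overlapped between neighbours. Ddit3 had 31.9 FPKM, apart from its neighbours. Xbp1 and Herpud1 were at 18.7 FPKM each and could not be ordered. Manf (12.7 FPKM), Creld2 (8.96 FPKM) and Sdf2l1 (6.09 FPKM) came last, again with overlapping ranges between neighbours. In Gsk3sKO the order from Calr to Ddit3 was the same, while the ranges of Hspa5 and Atf4 lay apart. Xbp1 moved from percentile 71.1 in Ctrl to 61.1 in Gsk3sKO, and Herpud1 from 71.1 to 61.5. Their ranges in Gsk3sKO overlapped each other, and both also overlapped that of Manf.

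**Figure D1:**
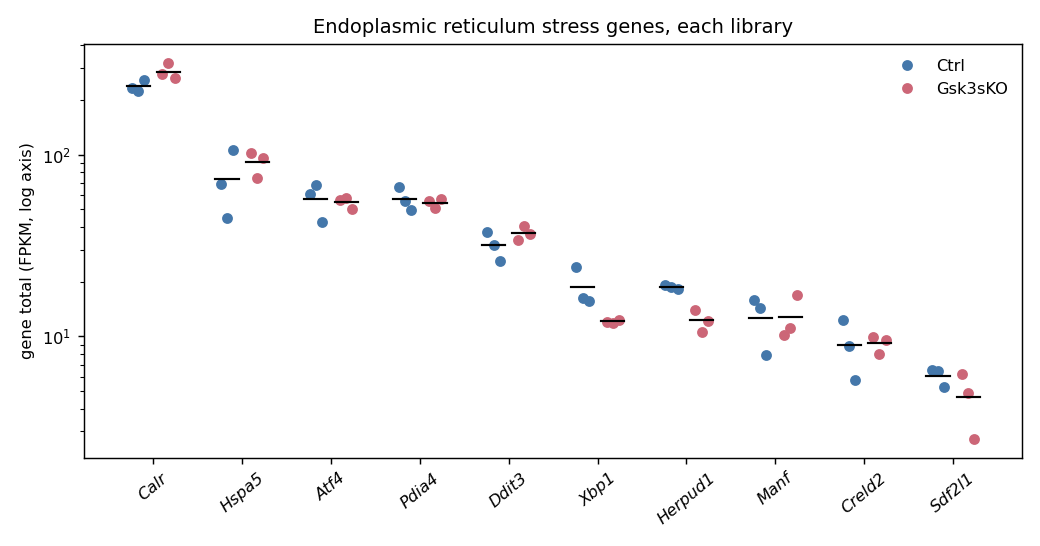
Gene totals of the 10 ER stress genes in FPKM on a log axis, with 1 point per library (Ctrl in blue, Gsk3sKO in red, 3 each) and a black line at the group mean. The Gsk3sKO points of Xbp1 and Herpud1 lie below all Ctrl points, those of Calr lie above them, and the groups of the other 7 genes overlap.

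Of the transcription factors of the response, Xbp1 was lower in Gsk3sKO. Xbp1 (ENSMUSG00000020484, GRCm38 chr11:5520659-5525893, plus strand) encodes the factor that IRE1 switches on by splicing. Its gene total was 24.1, 16.2 and 15.7 FPKM in Ctrl and 12.02, 11.9 and 12.3 FPKM in Gsk3sKO. The groups did not overlap, and the Gsk3sKO libraries lay close together while Ctrl replicate 1 stood above the other Ctrl libraries. The means were 18.7 ± 4.70 FPKM and 12.1 ± 0.212 FPKM (SD, n = 3 each). The log2 fold change was −0.56 ± 0.20 (SE, 95% interval −1.01 to −0.11), with a limma p of 0.0199 and an adjusted p of 0.688. Without Ctrl replicate 1, which was also low in Drd2, the log2 fold change was −0.37 and the limma p 0.0545, so the call rests on that library. The exact permutation test gave 0.1, the smallest p that 3 libraries against 3 allow. The transcript Xbp1-201 (ENSMUST00000063084) made up 85.2% to 98.4% of the total in each library, and taken alone it had a limma p of 0.0783.

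The stretch that IRE1 removes is shown because FPKM of whole transcripts cannot tell its spliced and unspliced forms apart, so the fall in Xbp1 says nothing of how much of it was spliced. It is at chr11:5524279-5524304 (GRCm38, plus strand), in exon 4 of the 5 exons of Xbp1-201, as read from the GENCODE M21 transcripts. Capitals mark the 26 bases between the cuts.
Xbp1: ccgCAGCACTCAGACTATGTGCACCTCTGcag
The open reading frame of Xbp1-201 has 267 codons with these bases and 371 codons without them. The removal shifts the frame, and the longer protein is known as the active factor XBP1s.

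Atf4, the factor made when PERK or another kinase phosphorylates eIF2α, was at 60.5, 68.6 and 42.6 FPKM in Ctrl and 56.6, 58.1 and 50.1 FPKM in Gsk3sKO. The Gsk3sKO libraries lay within the range of Ctrl. The log2 fold change was −0.03 ± 0.19 (SE, limma p = 0.857, exact permutation p = 0.8), and its interval of −0.46 to 0.39 leaves room for a change in either direction. Atf4 is known to be controlled mainly by translation, and ribosome-bound RNA was not set against total RNA here. Ddit3, the factor that ATF4 induces and that promotes cell death, was at 37.6, 32.1 and 26.01 FPKM in Ctrl and 34.0, 40.4 and 36.7 FPKM in Gsk3sKO. The groups overlapped, with a log2 fold change of 0.22 ± 0.17 (SE, limma p = 0.222, exact permutation p = 0.3, 95% interval −0.16 to 0.61). Without Ctrl replicate 3, the lowest library, it was 0.088. Ddit3 overlaps Mars on the opposite strand, which had a mean of 11.5 FPKM, and whether the reads were assigned by strand is not given in the sources used here.

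Herpud1 was the member with the lowest p. Herpud1 (ENSMUSG00000031770, GRCm38 chr8:94386438-94395377, plus strand) encodes an ER membrane protein that helps to assemble the ubiquitin ligase complex of ER-associated degradation. Its gene total was 19.1, 18.7 and 18.2 FPKM in Ctrl and 14.0, 10.6 and 12.2 FPKM in Gsk3sKO. The 3 Ctrl libraries lay within 1 FPKM of each other and all stood above the Gsk3sKO libraries. The means were 18.7 ± 0.450 FPKM and 12.3 ± 1.74 FPKM (SD, n = 3 each). The log2 fold change was −0.58 ± 0.16 (SE, 95% interval −0.95 to −0.20), with a limma p of 0.00745 and an adjusted p of 0.607. The exact permutation test again gave 0.1. The limma p stayed between 0.00381 and 0.0284 over 13 other settings, those that leave out a library included.

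Neither main transcript of Herpud1 was called alone, and the FPKM was divided between them differently from library to library. Herpud1-205 (ENSMUST00000161576) had 18.4, 4.30 and 7.54 FPKM in Ctrl and 14.0, 2.99 and 12.1 FPKM in Gsk3sKO. Herpud1-201 (ENSMUST00000034220) had 0, 14.1 and 9.06 FPKM in Ctrl and 0, 4.51 and 0 FPKM in Gsk3sKO. In the 3 libraries where Herpud1-205 was highest, 1 of Ctrl and 2 of Gsk3sKO, Herpud1-201 was at 0. Both have 8 exons and differ little in length, with 1952 and 1873 bases, so the sum depends little on how reads were shared between these 2. A shorter form, the 690-base retained-intron transcript Herpud1-203 (ENSMUST00000160866), singled out after its values were seen, had 3.06 of the 10.6 FPKM of Gsk3sKO replicate 2 (28.9%) and at most 1.58 FPKM in the other 5 libraries. Weighted by transcript length, the Herpud1 log2 fold change was −0.63 (limma adjusted p = 0.785). The limma p was 0.936 for Herpud1-205 and 0.234 for Herpud1-201.

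Calr was the most abundant member and the only one whose Gsk3sKO libraries all stood above Ctrl. It encodes calreticulin, a calcium-binding chaperone of glycoproteins. Its gene total was 234, 225 and 258 FPKM in Ctrl and 277, 321 and 263 FPKM in Gsk3sKO. The highest Ctrl and the lowest Gsk3sKO library were close to each other. The log2 fold change was 0.26 ± 0.14 (SE, 95% interval −0.05 to 0.57), with a limma p of 0.0879 and an exact permutation p of 0.1. When libraries were scaled by median ratios, the log2 fold change was 0.31 and the limma p 0.0481, so this value depends on the scaling. The main transcript Calr-201 (ENSMUST00000003912) had 232, 223 and 255 FPKM in Ctrl and 277, 306 and 240 FPKM in Gsk3sKO, which overlapped. The retained-intron transcript Calr-204 (ENSMUST00000154774) had 1.38, 2.16 and 3.01 FPKM in Ctrl and 0.535, 14.0 and 22.6 FPKM in Gsk3sKO, so part of the separation of the totals came from this form in Gsk3sKO replicates 2 and 3.

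Hspa5, the chaperone that holds the stress sensors inactive, varied most between Ctrl libraries. Its gene total was 68.9, 45.1 and 106 FPKM in Ctrl and 102, 74.4 and 96.2 FPKM in Gsk3sKO. Ctrl replicate 3 lay above all Gsk3sKO libraries and Ctrl replicates 1 and 2 lay below them. The means were 73.3 ± 30.6 FPKM and 90.9 ± 14.5 FPKM (SD, n = 3 each), with a log2 fold change of 0.38 ± 0.28 (SE, limma p = 0.219, exact permutation p = 0.5, 95% interval −0.27 to 1.03). The value depended on which Ctrl library was kept. Without Ctrl replicate 3 the log2 fold change was 0.68, with a limma p of 0.0185 and an adjusted p of 0.576, and without Ctrl replicate 2 it was 0.076, with a limma p of 0.756 and an adjusted p of 0.985.

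The Ctrl libraries also differed in which Hspa5 transcript they carried. Hspa5-201 (ENSMUST00000028222), the longer form with 3672 bases and 9 exons, had 49.0, 29.8 and 6.05 FPKM in Ctrl and 8.23, 5.26 and 11.4 FPKM in Gsk3sKO. Hspa5-202 (ENSMUST00000100171), with 2613 bases and 8 exons, had 19.5, 14.9 and 99.2 FPKM in Ctrl and 92.8, 69.2 and 84.6 FPKM in Gsk3sKO. In Ctrl replicates 1 and 2 the longer form made up 71.1% and 66.0% of the total, and in the other 4 libraries it made up 5.7% to 11.8%. The limma p was 0.121 for Hspa5-201 and 0.0878 for Hspa5-202. A read given to the longer transcript adds less FPKM, so the total also depends on this division. When FPKM was multiplied by transcript length in kilobases before summing, Hspa5 was at 231, 149 and 282 in Ctrl and 273, 200 and 263 in Gsk3sKO, and the log2 fold change was 0.19 (limma adjusted p = 0.900). The same 2 Ctrl libraries held the largest shares of the short RNA Gm23935, 24.3% and 24.9% of the summed FPKM against 7.80% to 13.4% in the other 4, and its part in the Hspa5 values was not tested.

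**Figure D2:**
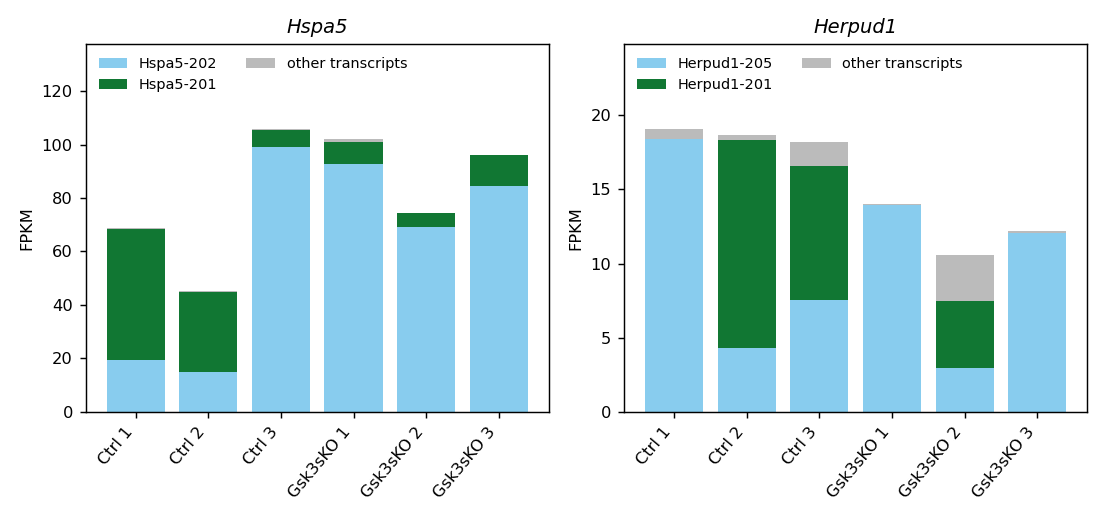
FPKM of the transcripts of Hspa5 (left) and Herpud1 (right) in each of the 6 libraries, stacked so that the bar height is the gene total. Hspa5-201 makes up most of the bar in Ctrl replicates 1 and 2 alone, and the Herpud1 bars are lower in Gsk3sKO, with a larger share of other transcripts in Gsk3sKO replicate 2.

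The groups of the other ER proteins overlapped, and none passed the test. Pdia4, a disulfide isomerase, was at 66.1, 55.5 and 49.4 FPKM in Ctrl and 55.4, 50.8 and 57.4 FPKM in Gsk3sKO, with a log2 fold change of −0.05 (limma p = 0.723, exact permutation p = 0.8, 95% interval −0.39 to 0.28). Sdf2l1, a partner of ER-resident DnaJ proteins, was at 6.51, 6.48 and 5.28 FPKM in Ctrl and 6.22, 4.90 and 2.72 FPKM in Gsk3sKO. The lowest value was that of Gsk3sKO replicate 3, the groups overlapped, and the log2 fold change was −0.38 (limma p = 0.210, exact permutation p = 0.2, 95% interval −1.03 to 0.26). Without Gsk3sKO replicate 3 the log2 fold change of Sdf2l1 was −0.11.

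Creld2 and Manf, whose proteins are ER-resident and are secreted under stress, also overlapped. Creld2 was at 12.3, 8.86 and 5.72 FPKM in Ctrl and 9.91, 8.02 and 9.53 FPKM in Gsk3sKO, with a log2 fold change of 0.08 (limma p = 0.778, exact permutation p = 0.8, 95% interval −0.53 to 0.68). Manf, a neurotrophic factor, was at 15.8, 14.4 and 7.92 FPKM in Ctrl and 10.1, 11.1 and 16.9 FPKM in Gsk3sKO, with a log2 fold change of 0.02 (limma p = 0.936, exact permutation p = 1, 95% interval −0.64 to 0.69). Ctrl replicate 3 was the lowest library for both genes.

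The highest Manf value came from a short retained-intron form. In Gsk3sKO replicate 3 the coding transcript Manf-202 (ENSMUST00000159283) had 5.48 FPKM and the 502-base Manf-205 (ENSMUST00000160978) 11.1 FPKM. In the other 5 libraries Manf-202 had 7.55 to 15.5 FPKM and Manf-205 at most 2.35 FPKM. Weighted by length, the Manf log2 fold change was −0.24 (limma adjusted p = 0.893). Manf also overlaps Rbm15b on the same strand, which had a mean of 9.64 FPKM.

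Counted together, 2 of the 10 members had an unadjusted limma p under 0.05, both lower, against 6.56% of the 12874 gene totals tested, and 5.2% of gene totals were lower at that threshold. Because the members were chosen with earlier results of these data known, this count is not independent of the choice. The groups did not overlap for 3 members, against 12% of all gene totals. Adjusted p-values of the members lay between 0.607 and 0.993, while 6 gene totals in the whole table had an adjusted p under 0.05. The median log2 fold change was −0.01 over the 10 members, 5 of which had a negative and 5 a positive value, and −0.06 over all gene totals tested. Of the 34 member transcripts, 14 had a mean FPKM of at least 1 and were tested, and 0 of them had a limma p under 0.05, against 5.56% of all 21584 transcripts tested.

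**Figure D3:**
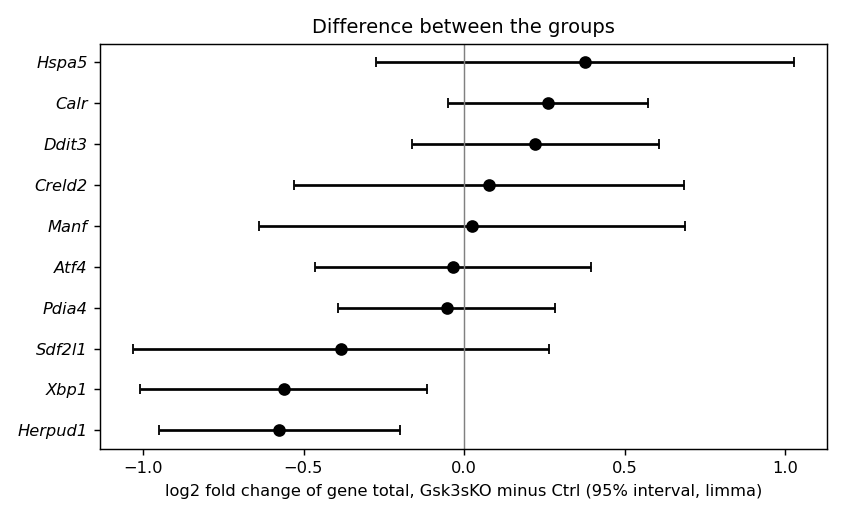
Log2 fold change of each gene total, Gsk3sKO minus Ctrl, with the 95% interval from limma (3 libraries in each group). The intervals of Herpud1 and Xbp1 lie below 0, and the intervals of the other 8 genes cross it.

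Some markers of other cells were lower in Gsk3sKO, as Xbp1 and Herpud1 were. Of 18 plasma and B cell markers, 8 were tested and 7 were lower in Gsk3sKO, against 5.2% of all gene totals. These 7 were Jchain and immunoglobulin constant genes. Jchain and Igha had means of 0.249 and 0.241 FPKM in Gsk3sKO, so they passed the filter of 1 FPKM through Ctrl alone. They could hardly be called other than lower, which limits the comparison with the share of all gene totals. Iglc1, tested but not called, passed in the same way with 0.338 FPKM in Gsk3sKO. The summed level of the list was 97.1 to 187 FPKM in Ctrl and 22.0 to 26.1 FPKM in Gsk3sKO. Jchain, which joins immunoglobulin subunits and was the defining marker, was at 4.51, 4.94 and 4.69 FPKM in Ctrl and 0.418, 0.328 and 0 FPKM in Gsk3sKO. Igkc (27.2, 30.6 and 53.0 FPKM against 6.19, 7.40 and 5.09 FPKM) and Ighg2c had an adjusted p of 0.044 each, and Ighm, Ighg2b, Ighg3 and Igha were the other 4 called. Immunoglobulin constant genes resemble each other, so reads may be divided between them. The B and plasma cell genes Mzb1, Cd79b, Tnfrsf17 and Pou2af1 were listed at 0 in all 6 libraries. Sdc1, Prdm1, Fkbp11 and Cd79a had means under 1 FPKM and were not tested. In Ctrl and Gsk3sKO, Sdc1 had means of 0.11 and 0.11 FPKM, Prdm1 0.153 and 0.0821 FPKM, and Fkbp11 0.481 and 0 FPKM.

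Glial lists differed less. Of 8 microglial markers tested, C1qa and C1qb were lower, with summed levels of the list of 42.2 to 53.9 FPKM in Ctrl and 31.4 to 41.3 FPKM in Gsk3sKO, while the defining marker Cx3cr1 (1.02 to 2.68 against 0.948 to 2.12 FPKM) was not. Of 9 oligodendrocyte markers tested, Mog, Mag, Cnp and Cldn11 were lower, and the defining marker Mog was at 3.996, 3.02 and 2.67 FPKM in Ctrl and 1.81, 0 and 0 FPKM in Gsk3sKO. With a mean of 0.602 FPKM in Gsk3sKO, Mog passed the filter through Ctrl alone, as Jchain did. The summed oligodendrocyte level overlapped, with 131 to 200 FPKM in Ctrl and 136 to 175 FPKM in Gsk3sKO. Astrocyte, endothelial and inhibitory neuron lists had 0 genes called, with Aqp4 at 6.05 to 11.9 FPKM and Cldn5 at 2.06 to 7.65 FPKM over the 6 libraries, and of 10 excitatory markers Tbr1 and Cux2 were lower. The part of these cells in the Xbp1 and Herpud1 values was not tested. The libraries hold immunoprecipitated RNA rather than all RNA of the tissue, so the marker values do not count cells of a type. Fewer cells and less RNA per cell cannot be told apart in them either.

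The wider pathway was described with 112 other genes in 5 lists, of which 105 were tested. Of these, 8 (7.62%) had a limma p under 0.05, beside the 6.56% of all gene totals, and all 8 were lower in Gsk3sKO. Over the whole table, 669 of the 844 gene totals called were also lower. The lowest adjusted p was 0.379 and the median log2 fold change −0.03.

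Among sensors and regulators of the response, 2 of the 18 tested were lower and 0 higher. Bax, which permeabilizes mitochondria in cell death and also acts at the ER, was at 16.8, 12.3 and 11.6 FPKM in Ctrl and 7.91, 5.36 and 5.26 FPKM in Gsk3sKO, with a log2 fold change of −1.02. Tmbim6, an ER membrane protein known as a BAX inhibitor, was at 44.4, 51.0 and 42.0 FPKM in Ctrl and 41.9, 32.3 and 27.7 FPKM in Gsk3sKO. Neither pair of groups overlapped, though Tmbim6 was only just apart. Tmbim6, Rtcb, the ligase that joins spliced Xbp1, the ER membrane protein Wfs1, the factor Nfe2l1 and the sensor Atf6 were the most abundant of the list. The last 4 were not called, and Atf6 had means of 17.7 and 17.4 FPKM.

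Of 23 chaperones and folding enzymes tested 0 were called, and the median log2 fold change was 0.06. The 5 most abundant were Hsp90b1, the ER form of HSP90, with 249 FPKM in Ctrl and 272 FPKM in Gsk3sKO, then Canx, Fkbp2, Pdia3 and Ppib. Canx, the membrane-bound relative of Calr, was at 181, 204 and 225 FPKM in Ctrl and 233, 248 and 235 FPKM in Gsk3sKO. Its groups did not overlap, as for Calr, and its log2 fold change was 0.24 ± 0.13 (SE, limma adjusted p = 0.792).

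In ER-associated degradation, the machinery to which Herpud1 belongs, 1 of 20 tested was lower. This was Ube2g2, a ubiquitin-conjugating enzyme, at 17.5, 9.52 and 14.1 FPKM in Ctrl and 7.22, 10.03 and 7.96 FPKM in Gsk3sKO, with groups that overlapped. The most abundant genes were Selenok, the unfolding enzyme Vcp, Os9, the ligase adaptor Sel1l and Ubxn4, and none of them was called. Sel1l, which sits in the same ligase complex as Herpud1, had means of 43.9 FPKM in Ctrl and 43.8 FPKM in Gsk3sKO.

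Among targets of the integrated stress response, which ATF4 drives, 2 of 22 were lower, and the median log2 fold change was −0.16. Cebpb, a transcription factor, was at 2.51, 2.55 and 1.52 FPKM in Ctrl and 0.254, 0.881 and 0.350 FPKM in Gsk3sKO. Mthfd2, an enzyme of mitochondrial folate metabolism, was at 6.32, 2.89 and 2.87 FPKM in Ctrl and 2.17, 1.68 and 0.482 FPKM in Gsk3sKO. Both were low and their groups did not overlap. Cebpb had a mean of 0.495 FPKM in Gsk3sKO and passed the filter of 1 FPKM through Ctrl alone, so it could hardly be called other than lower. The most abundant targets, Asns, the amino acid transporter subunits Slc3a2 and Slc7a5, Vldlr and Cebpg, were not called. Asparagine synthetase, encoded by Asns, had means of 33.9 FPKM in Ctrl and 38.5 FPKM in Gsk3sKO.

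The translocon and signal peptide list held 3 lower genes of 22 tested, and its median log2 fold change was −0.15. Srprb, the membrane anchor of the signal recognition particle receptor, was at 7.05, 5.57 and 6.19 FPKM in Ctrl and 2.65, 2.58 and 1.89 FPKM in Gsk3sKO, with a log2 fold change of −1.11. Srp9, a protein of the particle itself, was at 58.9, 32.2 and 39.1 FPKM in Ctrl and 29.1, 22.0 and 23.5 FPKM in Gsk3sKO. Spcs1, of the signal peptidase, was at 37.8, 24.5 and 25.5 FPKM in Ctrl and 22.6, 20.1 and 19.2 FPKM in Gsk3sKO. None of the 3 overlapped between groups, and Ctrl replicate 1 was the highest library of each, as it was for Xbp1. Srp9, Srp14, Sec62, Sec11c and Srp54a were the most abundant of the list, Srp54a having close copies among which reads may be divided, and of these Srp9 alone was called.

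**Figure D4:**
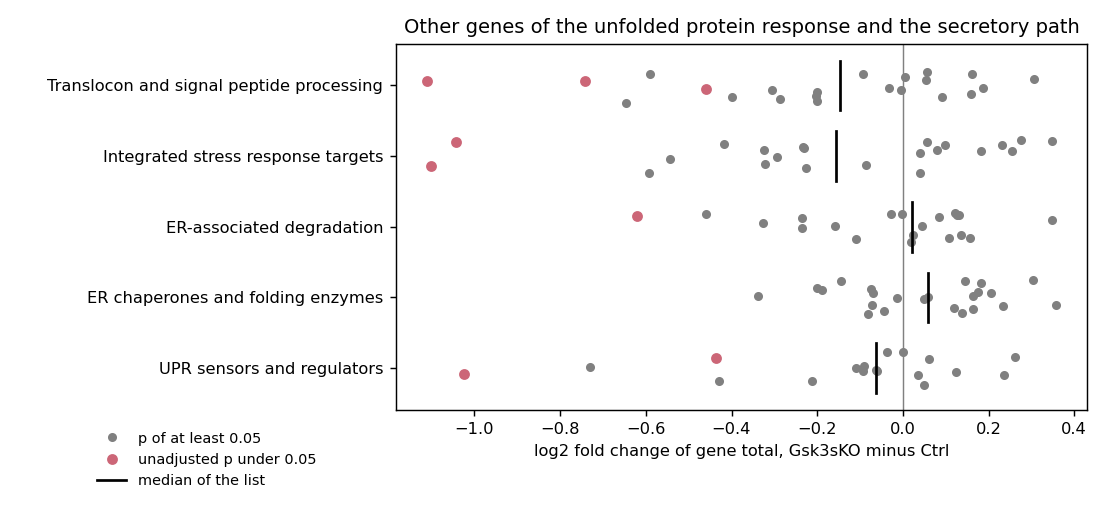
Log2 fold change of gene totals, Gsk3sKO minus Ctrl, for the 105 tested genes of the 5 pathway lists, with 1 point per gene and a black line at the median of each list (vertical position within a list carries no value). The 8 genes with an unadjusted limma p under 0.05 (red) are all on the lower side, and the chaperone list has none. In the whole table, 669 of the 844 gene totals called were lower.

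The genes of these lists whose levels followed Hspa5 most closely over the 6 libraries were Sec63, Ube2j2, Dnajc10, Ssr3 and Spcs3. Pearson's r of log2(FPKM + 1) with Hspa5 was 0.852, 0.821, 0.788, 0.740 and 0.623 in that order, given as a description over 6 libraries that share their depth and scaling. They are the highest values among the 105 tested genes, so high r can come from the choice alone. The Hspa5 total used also depends on how reads were divided between its transcripts. Sec63, a DnaJ protein of the translocon that works with BiP, was at 20.3, 17.6 and 24.8 FPKM in Ctrl and 22.3, 18.6 and 26.2 FPKM in Gsk3sKO. Its lowest library was Ctrl replicate 2, as for Hspa5. Dnajc10, an ER reductase that also works with BiP, was at 25.5, 24.8 and 32.5 FPKM in Ctrl and 30.7, 32.3 and 29.6 FPKM in Gsk3sKO. Ube2j2 was at 11.4, 7.63 and 12.8 FPKM in Ctrl and 10.6, 10.4 and 14.4 FPKM in Gsk3sKO. Ssr3 was at 23.0, 23.5 and 28.6 FPKM in Ctrl and 30.8, 26.4 and 36.8 FPKM in Gsk3sKO. Spcs3 was at 16.9, 15.8 and 17.7 FPKM in Ctrl and 19.4, 15.0 and 22.9 FPKM in Gsk3sKO.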

How the data were processed

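Ribosome-associated RNA, isolated by RiboTag immunoprecipitation and sequenced from total RNA with a stranded kit, was measured in 3 Ctrl and 3 Gsk3sKO libraries, grouped by their labels. The authors deposited FPKM values per transcript and library. The submitters' processing notes list HISAT2 2.1.0, SAMtools 1.9, StringTie 1.3.4d and the GRCm38 build, without settings. The fold, p and q columns the authors deposited were not used. StringTie divides reads between overlapping transcripts by estimate, so transcript values of a gene can trade against each other.

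FPKM was summed by gene identifier. Depth is not stated: at the best spacing of low values only 28.3% to 50.2% of them per library lay within 0.05 of a whole read, so no reads were recovered, and no counting error can be given. Groups were compared with limma 3.58.1 (lmFit, eBayes with trend, 2-sided) in R 4.3.3 on log2(FPKM + 1), for all gene totals or transcripts with a mean of at least 1 FPKM, and called at an unadjusted p under 0.05, with Benjamini-Hochberg adjustment over all tested. The log2 scale with a pseudocount understates changes of low genes. Exact permutation tests were 2-sided. The fit was tested on simulated data.

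The members and lists were chosen with earlier results of these data known. Named are all members, their transcripts with a mean of at least 1 FPKM, genes called in each list, the 5 most abundant genes of each pathway list in Ctrl, the defining marker of each cell type list, Gsk3b, and the 5 pathway genes most correlated with Hspa5. Gm23935, Herpud1-203 and some genes at 0 or too low to be tested were named after their values were seen. Of the 112 pathway genes, 3 were found under older symbols. Alternatives were a replicate block, other pseudocounts, filters and scaling, no variance moderation, each library left out and, added after seeing the data, totals weighted by transcript length.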

Additional observations from a re-analysis of the deposited data

How the results depend on the processing

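Herpud1 was called under all 13 alternatives and Xbp1 under 12, Xbp1 reaching −0.37 without Ctrl replicate 1. The number of members called ranged from 1 to 3 when 1 library was left out. It was lowest without Ctrl replicate 1 and highest without Ctrl replicate 3, which adds Hspa5. The whole table moved too. Of all 12874 gene totals, 844 were called in the main fit, 678 without Ctrl replicate 1 and 916 without Ctrl replicate 3. The number of member transcripts called ranged from 0 to 2 with 1 library left out. There were 2 without Ctrl replicate 3 and 1 each without Ctrl replicate 1 and without Gsk3sKO replicate 1. Counts over all transcripts in these settings are not given here, so this range is not read as particular to the members. With a mean FPKM of at least 5, 5 of the 83 pathway genes tested were called, beside 564 of 8468 gene totals. Without variance moderation it was 4 of 105, beside 695 of 12874. With 1 library left out, the count ranged from 4 of 105 (without Gsk3sKO replicate 3) to 9 of 105 (without Ctrl replicate 3). Beside these stood 658 and 916 of 12874 gene totals. Changes near 0 took the opposite sign in some settings: Atf4 was 0.011 with median ratio scaling and −0.23 to 0.11 with 1 library left out, and Manf was −0.24 with length-weighted totals and −0.26 to 0.20 with 1 library left out. With 1 library left out, Hspa5 ranged from 0.076 to 0.68, Sdf2l1 from −0.59 to −0.11 and Ddit3 from 0.088 to 0.35. Left-out libraries also gave Pdia4 −0.15 to 0.056 and Creld2 −0.18 to 0.31. The causes were not tested beyond the libraries named. The median over all gene totals stayed between −0.09 and −0.02 in all settings.

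Same-numbered libraries did not deviate together (correlations of −0.03, −0.01 and −0.08), so no pairing by number was seen. With 3 libraries in each group this cannot show whether same-numbered libraries were handled together. With the replicate block, 2 members were called, Xbp1 and Herpud1, with adjusted p-values of 0.752 and 0.710 by limma, and 821 gene totals in place of 844. With 3 libraries in each group and no read counts, the intervals are wide. Those of the members that were not called reach 0.66 on either side of the estimate on the log2 scale. Changes below that size may be missed, and so may some larger ones. In the simulated data, a log2 change of 1 was called by limma in 89% of gene totals and 59% of transcripts.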
